A study of Homo sapiens with 74 samples.

Results

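Divergent bidirectional promoters are stretches of DNA from which a pair of protein-coding genes is transcribed in opposite directions, away from each other. The pairs described here are all protein-coding genes of GENCODE release 44 (genome build hg38) on opposite strands whose outermost starts lie at most 1000 bp apart. This rule, which used no measured value, gave 887 pairs, out of 17209 promoters compared. These pairs held 1710 genes, 8.54% of the 20033 protein-coding genes. Of the other promoters, 14703 were one-directional promoters of coding genes, with no gene starting on the opposite strand within 1000 bp on either side. The remaining 1619 were divergent promoters at which a coding gene faced a noncoding one.

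DNA binding was measured by Cut&Run, in which an antibody guides a nuclease to a protein on chromatin and the released DNA fragments are sequenced. The cells were HEK293T, a line derived from human embryonic kidney, transfected with a plasmid that expressed 1 zinc finger protein (ZFP) with a C-terminal V5 tag from the EF1-alpha promoter, and profiled 48 h later without crosslinking by an antibody to V5. Each of 36 ZFPs had 2 replicates, each from its own culture well, and un-transfected cells of the same batch (mock IP) served as the peak caller's control for all of them. The ZFPs were APEX2, BRCA1, CISD1, CNBP, CNOT4, CPSF4, CPSF4L, CTCF, G2E3, GIN1, GTF3C4, LIN28B, MAZ, MBNL1, NANOS2, PHF7, RBM5, RNF113A, RNF14, SALL4, SNRPC, TEX13A, TRIM55, U2AF1, WBP4, ZC3H3, ZFP36L1, ZMAT3, ZMAT5, ZNF2, ZNF22, ZNF317, ZNF574, ZNF593, ZNF706 and ZNF800. The protein was expressed from a plasmid, so the peaks describe the tagged protein and not the cells' own, and Cut&Run reports DNA contacted directly or through other proteins. For CPSF4, MBNL1, SNRPC, TRIM55, ZC3H3 and ZMAT5 the study lists no Cut&Run target genes.

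Bidirectional promoters are a recognised feature of vertebrate genomes. Their genes often serve housekeeping functions such as DNA repair, mitochondrial function, RNA processing and nucleotide synthesis. The shared DNA is usually a CpG island, a GC-rich stretch that keeps its CpG dinucleotides, and it seldom carries a TATA box. Sites for NRF1, ETS family proteins, NF-Y and SP family proteins are common in such islands. Open chromatin between the start sites serves transcription in both directions.

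The gene starts of a pair lay 1 to 995 bp apart, with a median of 132 bp and quartiles of 69 and 248.5 bp. In 342 pairs the starts were at most 100 bp apart, and in 717 pairs (80.8%) at most 300 bp. At the edge of the rule, 17 pairs lay 900 to 1000 bp apart and 9 further pairs lay 1001 to 1100 bp apart. A gene was shared by 123 of the pairs, and 80 pairs included a readthrough gene, so these are not independent promoters. A pair counted as hit when a peak overlapped the interval between its starts extended by 200 bp on each side, a window of 402 to 1396 bp with a median of 533 bp. One-directional promoters were given windows of 533 bp.

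The DNA strictly between the starts of 9 pairs is printed here, read from hg38 on the plus strand, with the minus-strand gene to the left. Capitals mark matches, on either strand, to the cores GGGCGG (SP family), CCAAT (NF-Y), GCATGCGC (NRF1) and CCGGAAG (ETS family). The first 4 pairs were hit in both replicates of 4 to 7 ZFPs. SARS2-MRPS12, PPAT-PAICS and COL4A4-COL4A3 are textbook bidirectional promoters, of which the last had no peak. TPR-ODR4 held the strongest CTCF peak of any pair by the lower of its replicate folds, and RNF113A-NDUFA1 holds the gene of a profiled ZFP. In order they lie at chr10:97498795-97498923, chr16:46689519-46689642, chr19:10836319-10836574, chr13:72727630-72727748, chr19:38930764-38930943, chr4:56435616-56435740, chr2:227164454-227164623, chr1:186375694-186375837 and chrX:119871734-119871831.
MMS19-UBTD1: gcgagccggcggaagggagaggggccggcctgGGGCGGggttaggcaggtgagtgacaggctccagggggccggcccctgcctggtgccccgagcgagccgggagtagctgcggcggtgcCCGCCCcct
VPS35-ORC6: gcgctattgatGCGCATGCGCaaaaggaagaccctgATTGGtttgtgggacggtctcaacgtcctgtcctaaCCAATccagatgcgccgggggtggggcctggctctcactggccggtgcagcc
TMED1-C19orf38: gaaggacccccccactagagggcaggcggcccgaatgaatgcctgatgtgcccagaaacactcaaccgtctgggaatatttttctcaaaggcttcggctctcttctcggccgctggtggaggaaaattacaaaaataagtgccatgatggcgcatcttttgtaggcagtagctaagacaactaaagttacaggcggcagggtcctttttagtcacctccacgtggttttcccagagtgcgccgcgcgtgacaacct
MZT1-BORA: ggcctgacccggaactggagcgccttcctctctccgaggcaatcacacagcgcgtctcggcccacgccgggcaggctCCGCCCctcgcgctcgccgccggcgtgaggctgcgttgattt
SARS2-MRPS12: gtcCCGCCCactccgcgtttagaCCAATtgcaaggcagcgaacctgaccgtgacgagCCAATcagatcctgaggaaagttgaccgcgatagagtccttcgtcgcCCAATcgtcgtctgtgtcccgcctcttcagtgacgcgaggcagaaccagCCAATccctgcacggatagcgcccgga
PPAT-PAICS: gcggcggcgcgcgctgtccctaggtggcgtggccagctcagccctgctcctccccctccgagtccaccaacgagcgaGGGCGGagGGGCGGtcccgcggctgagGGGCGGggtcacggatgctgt
COL4A4-COL4A3: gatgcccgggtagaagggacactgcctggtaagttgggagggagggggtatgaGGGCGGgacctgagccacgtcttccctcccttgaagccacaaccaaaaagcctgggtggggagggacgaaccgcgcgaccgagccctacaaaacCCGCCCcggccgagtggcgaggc
TPR-ODR4: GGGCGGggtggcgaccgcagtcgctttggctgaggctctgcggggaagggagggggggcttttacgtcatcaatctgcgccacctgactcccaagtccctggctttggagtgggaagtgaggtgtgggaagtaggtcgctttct
RNF113A-NDUFA1: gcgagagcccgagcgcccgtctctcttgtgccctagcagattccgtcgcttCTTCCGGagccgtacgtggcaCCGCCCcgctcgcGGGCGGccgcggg

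The stretches differ in make-up. MMS19-UBTD1 is 78.3% G or C and holds 2 SP cores, and TMED1-C19orf38 is 52.7% G or C and holds none of the cores searched. VPS35-ORC6 holds 2 NF-Y cores and a run in which the NRF1 core is read on both strands, so that its 2 matches overlap. SARS2-MRPS12 holds 4 NF-Y cores and 1 SP core. COL4A4-COL4A3, without a peak, holds 2 SP cores and is 65.9% G or C, which lies within the range of the stretches with peaks.

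Before the bidirectional promoters are compared, the lists themselves need a description. The 72 lists held 15 to 8702 peaks each (median 631), the number of reads behind each was stated neither in the labels nor in the lists, and replicates of 1 ZFP could differ widely in length. A ZFP's plasmid carries its coding sequence, and peaks on exons of the ZFP's own gene were listed in both replicates of 32 of the 36 ZFPs, in 1 replicate of 2 ZFPs (MBNL1 and TRIM55) and in neither replicate of 2 (ZMAT5 and U2AF1). The libraries labelled U2AF1, a gene with a near-identical copy in hg38, instead held peaks of fold 2716 and 3226 over the mock IP on exons of USP39, another splicing factor. Peak folds in the second lists of TRIM55 and ZMAT5 stood apart at about 2, whereas they centred near 5 in the others.

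Peaks were common at the bidirectional promoters. Of 92122 peaks in all lists, 2544 (2.76%) overlapped a window of the 887 pairs, and these windows cover 0.0173% of the genome. One-directional promoter windows took 14294 peaks (15.5%). At least 1 ZFP had a peak at 650 pairs (73.3%), against 30.7% of one-directional promoters and 35.8% of promoters of all classes. No ZFP had a peak at 237 pairs. A peak in both replicates of at least 1 ZFP was found at 204 pairs (23%), against 6.84% of one-directional promoters and 8.62% of promoters of all classes.

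A few ZFPs supplied most of the hits. ZNF22, a small zinc finger protein, had a peak at 343 pairs in its joined replicates, 38.7% of all pairs (95% exact interval 35.5 to 42.0%), where 15.5% of promoters of all classes were hit. By replicate, the share of pairs hit by ZNF22 was 35.7% and 11.3%. APEX2, an apurinic/apyrimidinic endonuclease, hit 334 pairs (37.7%), against 15.4% of promoters of all classes, and its replicates were close at 24.7% and 25%. APEX2 also had the most pairs hit in both replicates, with 107. Intervals cover counting error only, and the spread between replicates was often wider than they were.

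CISD1, an iron-sulfur protein known from the outer mitochondrial membrane, hit 289 pairs (32.6%), where 15.2% of promoters of all classes were hit, with replicate shares of 29.8% and 8.34%. PHF7, a PHD and RING finger protein, hit 272 pairs (30.7%), against 12.9% of all promoters. Its replicates were far apart, at 29.5% and 2.82% of pairs, and 15 pairs were hit in both. G2E3, a ubiquitin ligase, hit 233 pairs (26.3%), against 11.7% of all promoters, with replicate shares of 13.1% and 18.4%. GIN1 hit 164 pairs (18.5%), against 7.34% of all promoters, with replicate shares of 14.0% and 6.09%.

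CTCF, the insulator protein with a long sequence-specific zinc finger array, hit 156 pairs (17.6%), where 8.07% of all promoters were hit, with replicate shares of 14.1% and 7.44%. CPSF4, a subunit of the mRNA cleavage and polyadenylation machinery, hit 110 pairs (12.4%), against 4.27% of all promoters. TEX13A hit 83, ZMAT3 69, SNRPC 58, RNF113A 51, ZC3H3 42, ZNF593 32 and MAZ 15 pairs, where they hit 3.42%, 2.6%, 2.26%, 2.23%, 1.96%, 1.36% and 0.639% of all promoters. In ZC3H3 all 42 pairs came from replicate 1, since replicate 2 held only 15 peaks. By replicate, TEX13A hit 70 and 18 pairs, ZMAT3 66 and 7, SNRPC 57 and 1, RNF113A 43 and 9, ZNF593 8 and 29 and MAZ 3 and 13. In the same order, 5, 4, 0, 1, 5 and 1 pairs were hit in both replicates.

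The remaining ZFPs had few or no bidirectional promoters. WBP4 hit 12 pairs, CPSF4L and TRIM55 hit 9 each, LIN28B and the libraries labelled U2AF1 hit 7 each, and BRCA1 hit 6, where they hit 0.436%, 0.308%, 0.488%, 0.285%, 0.424% and 0.476% of all promoters. ZMAT5 and ZNF800 hit 2 pairs each, against 0.285% and 0.0697% of all promoters, and MBNL1 and NANOS2 hit 1 each, against 0.169% and 0.0639%. All pairs of TRIM55 and of ZMAT5 came from replicate 2, the lists with folds of about 2. These lists held no peak on exons of the ZFP's own gene. No pair was hit by 11 ZFPs (CNBP, CNOT4, GTF3C4, RBM5, RNF14, SALL4, ZFP36L1, ZNF2, ZNF317, ZNF574 and ZNF706), which hit 0.00581 to 0.186% of all promoters. A count of 0 of 887 pairs allows a share of up to 0.338% (3 counts), so binding at a few pairs was not detectable there.

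**Figure D1:**
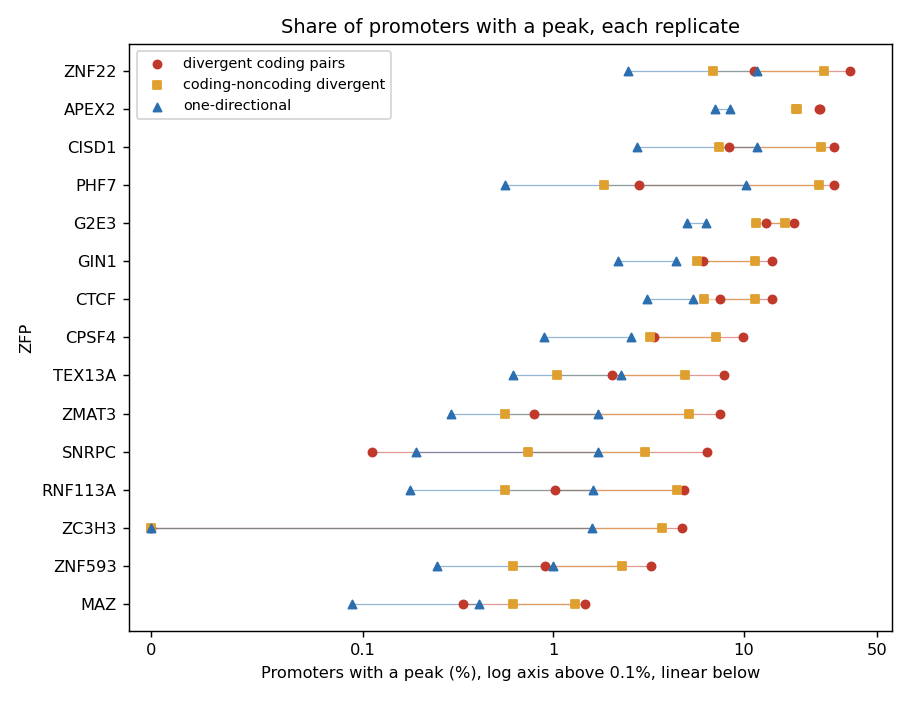
Share of promoters with a peak (%, log axis above 0.1%) in each replicate of the 15 ZFPs that hit at least 100 promoters, with 1 point per replicate, a line joining the replicates, and colours for divergent coding pairs, coding-noncoding divergent promoters and one-directional promoters. Within a replicate, pairs lie to the right of one-directional promoters except in replicate 2 of SNRPC and of ZC3H3, while replicates of 1 ZFP can lie far apart, as in PHF7 with 29.5% and 2.82% of pairs.

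Bidirectional promoters were next compared with one-directional ones within each ZFP, as the log2 ratio of the shares hit in the joined replicates, with a prior count of 0.5, over the 25 ZFPs that hit at least 20 promoters. The share of pairs hit was the larger one in 21 of the 25 ZFPs, and the mean log2 ratio was 1.3 ± 0.93 (SD, n = 25 ZFPs), a ratio of 2.46, with 22 values above 0. The difference passed a two-sided sign-flip permutation test over ZFPs (adjusted p = 0.0001 over 5 tests). In the 15 ZFPs with at least 100 promoters hit the ratio of shares ran from 2.56 in CISD1 to 3.98 in ZMAT3. In single lists of these ZFPs that hit at least 20 promoters, the log2 ratio was above 0 in 28 of 29, the exception being replicate 2 of SNRPC at -0.20, with 1 pair hit. All ZFPs share the cell line and the kind of control, so the p-value measures the spread over these ZFPs only.

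The 3 ZFPs not above 0 were CNOT4 and ZNF2, which hit no pair, and ZMAT5 with 2 pairs, and the values of such lists are set by the prior count. MBNL1, with 1 pair hit, was above 0 through the prior count only, since it hit 0.113% of pairs and 0.143% of one-directional promoters. With a prior count in proportion to class size, chosen after these values were seen, the mean was 0.98 and the adjusted p 0.0502. With at least 100 promoters hit, also chosen afterwards, it was 1.67 (adjusted p = 8.33e-05, permutation test).

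A pair offers a start for each of its genes. For the 15 ZFPs with at least 100 promoters hit, the share of pairs hit was set against the share that 2 independent one-directional promoters would give, which was computed from the one-directional share. Observed shares exceeded it in 15 of 15 ZFPs, by 1.34 times in CTCF to 2.00 times in ZMAT3, with a median of 1.63. The one-directional promoters behind this sum differ from the pairs in CpG content, and the same sum within CpG-rich promoters, given below with their shares, had a median under 1. Both sums take 2 separate windows of 533 bp as independent. A pair was scored in 1 window, of median 533 bp, with its starts a median of 132 bp apart. Neither sum therefore isolates the number of starts. With each gene start counted by itself, with 200 bp to each side, the mean log2 ratio over one-directional promoters was 1.18. This passed the permutation test (n = 24 ZFPs, adjusted p = 0.00035). Where the starts of a pair lie at most 200 bp apart, such a window holds both of them. The part that the number of starts has in the excess was not tested.

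Base composition moved with the class of promoter. The 600 bp around the middle of a pair had a median GC content of 63.3% and a CpG ratio (observed over expected CpG) of 0.830, against 58.3% and 0.610 at one-directional promoters. With a GC content of at least 0.5 and a CpG ratio of at least 0.6 counted as CpG-rich, 799 pairs (90.1%) were CpG-rich, against 48.6% of one-directional and 82.3% of coding-noncoding promoters. Within CpG-rich promoters alone, the mean log2 ratio of pairs over one-directional promoters was 0.47 ± 0.88 (SD, n = 25 ZFPs), a ratio of 1.39, above 0 in 21 of 25 ZFPs (adjusted p = 0.0353, permutation test), and the share of pairs was the larger one in 20. The ratio was smaller than over all promoters, a difference that was not tested.

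ZNF22 shows the step in single values. It hit 40.9% of CpG-rich pairs and 24.4% of CpG-rich one-directional promoters, where the shares over all promoters were 38.7% and 12.7%. CTCF hit 17.9% of CpG-rich pairs and 13.1% of CpG-rich one-directional promoters. Over the 15 ZFPs with at least 100 promoters hit, the ratio of the CpG-rich shares ran from 1.37 in CTCF to 2.14 in ZMAT3. Against the share that 2 independent CpG-rich one-directional promoters would give, a sum made after these values were seen, the pairs reached 0.731 (CTCF) to 1.09 times (ZMAT3), with a median of 0.913, and exceeded it in 2 of the 15 ZFPs.

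The call within CpG-rich promoters was lost without replicate 1 (adjusted p = 0.0837), without CPSF4, MBNL1, SNRPC, TRIM55, ZC3H3 and ZMAT5, the 6 ZFPs for which the study lists no Cut&Run target genes (0.0693), at a stricter CpG threshold (0.0721) and with the prior count in proportion to class size (0.754), all by the permutation test, and kept its direction in all of these.

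**Figure D2:**
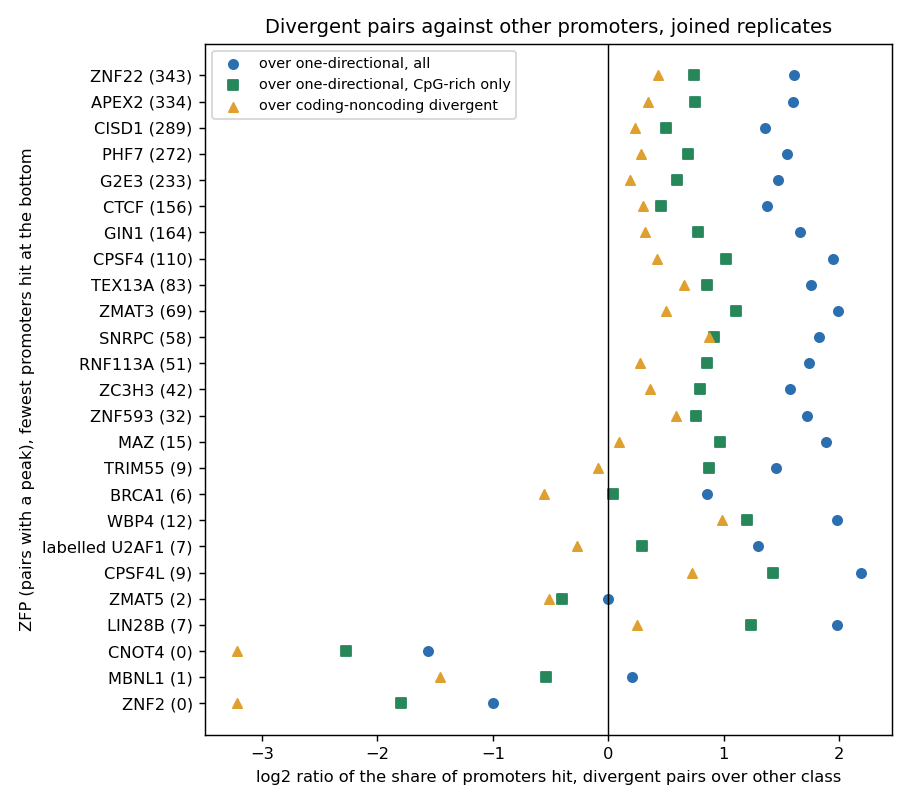
Log2 ratio of the share of divergent pairs hit over the share of another promoter class hit, in joined replicates, 1 row for each of the 25 ZFPs tested with its number of pairs hit in brackets and colours for the comparison class. In the 15 ZFPs from MAZ upwards the ratio over one-directional promoters runs from 1.36 to 1.99 and falls to 0.45 to 1.10 among CpG-rich promoters, while CNOT4 and ZNF2, with 0 pairs hit, lie below 0 in every comparison.

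Divergent promoters whose second gene is noncoding allow a closer comparison, since they share the divergent layout and most of the CpG content. The difference between the 2 kinds of divergent promoter did not pass the test in the 25 ZFPs, with a mean log2 ratio of -0.06 ± 1.08 (SD), 18 of 25 ZFPs above 0 (range -3.22 to 0.99) and an adjusted p of 0.775 by the permutation test. The mean moved with the minimum of promoters hit, of which 100 was chosen after these values were seen. In the 15 ZFPs with at least 100 promoters hit, the ratio in joined lists was above 0 in 15 of 15, from 0.09 in MAZ to 0.87 in SNRPC, with a mean of 0.39 (adjusted p = 8.33e-05, permutation test). Both of these ends turned in a single list. Replicate 2 of SNRPC hit 0.113% of pairs and 0.741% of coding-noncoding promoters, and replicate 1 of MAZ hit 0.338% and 0.618%. In joined lists ZNF22 hit 38.7% of coding pairs and 28.8% of coding-noncoding promoters, and APEX2 37.7% and 29.8%. A minimum of 50 promoters gave a mean of 0.33 (adjusted p = 0.0016, permutation test). The comparison also passed the permutation test at stricter peak thresholds (-log10 q of at least 3, mean 0.38, adjusted p = 0.00317, and of at least 5, mean 0.33, adjusted p = 0.0241) and without replicate 2 (0.37, adjusted p = 0.00395).

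The height of the peaks did not differ between the classes beyond the spread over ZFPs. The authors' fold over the mock IP had a median between 4.83 and 5.74 at the pairs hit by the 16 ZFPs with at least 10 hit promoters of both classes. For APEX2 the median fold was 5.48 at pairs and 5.30 at one-directional promoters, and for CTCF 5.42 and 5.67. The log2 difference of the medians had a mean of 0.01 ± 0.05 (SD, n = 16 ZFPs, range -0.09 to 0.09, 9 of 16 above 0, adjusted p = 0.414, permutation test). It was 0 in G2E3, GIN1, PHF7, RNF113A and SNRPC, and below 0 in CTCF and MAZ only. Folds came in steps, and the commonest fold of a list, to 2 decimals, was held by 4.04 to 97.7% of its hit promoters (median 7.55% over 37 lists), which limits how small a difference can be seen.

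Distance between the starts was examined with a window of one size, 400 bp at the midpoint of each pair, so that wider pairs had no larger target. By at least 1 ZFP, 60.3% of the 146 pairs with starts at most 50 bp apart were hit, 70.4% at 51 to 100 bp, 73.1% at 101 to 200 bp, 75.4% at 201 to 300 bp, 77.7% at 301 to 500 bp and 54.0% at 501 to 1000 bp. One-directional promoters were hit in 29.1% of cases with the same window. Pairs 301 to 500 bp apart thus had the highest share and the widest pairs the lowest. At pairs more than 400 bp apart the window holds neither gene start, whereas at one-directional promoters it holds the start. The part that this has in the shares was not tested.

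APEX2 hit 26.7% of the closest pairs, 53.2% of the 94 pairs at 301 to 500 bp and 27.6% of the 76 widest pairs. CTCF ran from 10.3% through 24.5% to 13.2% over the same classes, and ZNF22 from 28.8% through 46.8% to 27.6%. PHF7 differed in that the widest pairs, at 30.3%, were close to those at 301 to 500 bp, at 31.9%.

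Close and wider pairs were compared in the same 400 bp window, which holds no gene start at pairs more than 400 bp apart. By at least 1 ZFP, 503 of the 717 pairs with starts at most 300 bp apart (70.2%) and 114 of the 170 wider pairs (67.1%) were hit. Per ZFP the order was the other way, with a mean log2 ratio of close over wider pairs of -0.44 ± 0.91 (SD, n = 25 ZFPs, p = 0.0212, adjusted p = 0.0353, permutation test). APEX2 hit 33.6% of the close and 41.8% of the wider pairs, and CISD1 29.0% and 28.2%. By the shares themselves, 14 of the 25 ZFPs had the lower share at close pairs, 9 the higher one and 2 had no hit in either class, and the last have a value of -2.07 from the prior count alone. With at least 50 promoters hit the mean was -0.21 (adjusted p = 0.234), at 200 bp as the boundary -0.09 (0.775), and with the prior count in proportion to class size 0.0022 (0.992), by the permutation test, so the call did not hold under these settings.

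**Figure D3:**
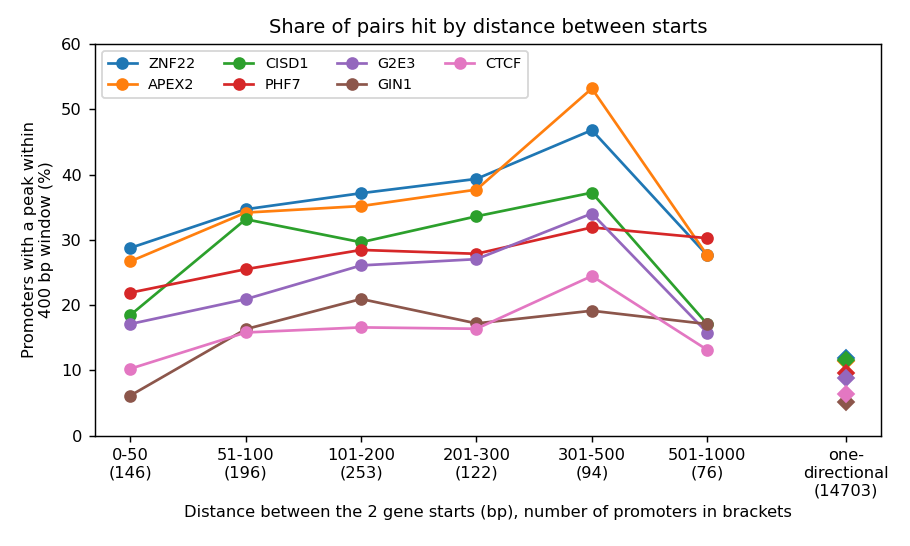
Share of pairs with a peak in the 400 bp around the midpoint (%) against the distance between the gene starts (bp), for 7 ZFPs in joined replicates, with the number of pairs in brackets and one-directional promoters as diamonds at the right. The share is highest at 301 to 500 bp in 6 of the 7 ZFPs, with APEX2 at 53.2%, and every point lies above the diamond of its ZFP. The window holds no gene start at pairs more than 400 bp apart, but holds the start at one-directional promoters.

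The summit, the highest point of a peak, showed where within a bidirectional promoter the signal lay. Over 2672 hits, each the strongest peak of 1 list at 1 pair, 28.9% of summits fell between the gene starts. On average 31.5% of the window lies there. A hit needs only 1 bp of overlap, so a summit could lie outside the window. Shares of summits and of the window therefore have different bases, here and for single ZFPs. Summits lay on the side of the minus-strand gene in 37.8% and on the side of the plus-strand gene in 33.4%. The whole of the interval with both starts was covered by the peak in 23.1% of hits. Peaks at pairs had a median width of 304 bp, and over all peaks of the series the summit sat on average at 0.478 of the peak's length from its lower coordinate, so a lean to the left was present in the lists as a whole.

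CTCF had the highest share of summits between the starts among the ZFPs with at least 20 hits. Its summits fell between the starts in 46.1% of 191 hits, 47.2% (95% exact interval 38.2 to 56.3%) in replicate 1 and 43.9% (31.7 to 56.7%) in replicate 2, with 33.3% of the window lying there. In the other 20 lists with at least 20 pairs hit the share ran from 14.9% in CISD1 replicate 2 to 42.4% in ZMAT3 replicate 1, with a median of 27.9%. Hence both CTCF lists were above all of these lists, though the intervals overlap with those of the higher ones. With both replicates together, ZNF593 came next at 43.2% of 37 hits, followed by ZMAT3 at 38.4% of 73. At pairs more than 300 bp apart, 79.7% of 59 CTCF summits fell between the starts. The share there was 68.8% of 16 in ZNF593 and 55.3% of 714 over all lists.

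RNF113A lay at the other end, with 17.3% of 52 summits between the starts, and CISD1 had 22.5% of 338. The median distance of the summit from the midpoint was 126 bp in CTCF and 192 bp in CISD1 and in G2E3. CTCF peaks were also among the narrower ones, with a median width of 228 bp against 393 bp in ZNF22, and width was not separated from position here.

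**Figure D4:**
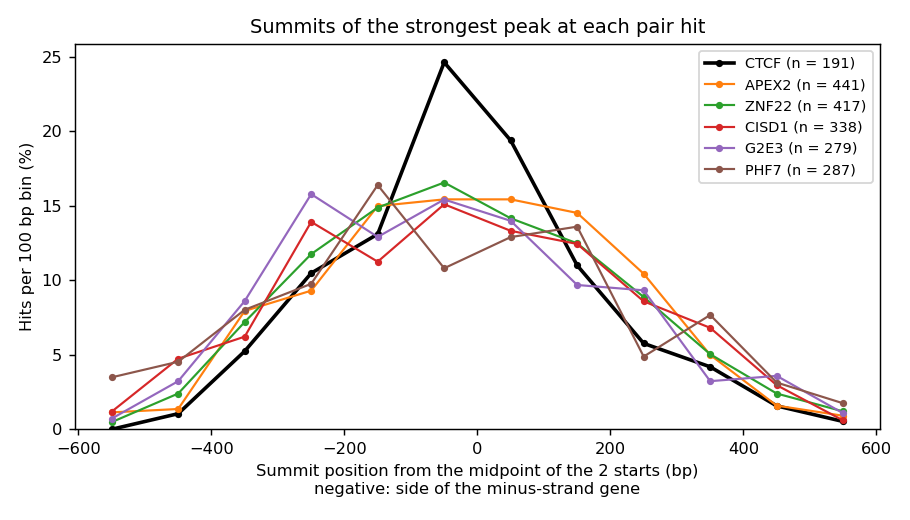
Position of the summit of the strongest peak at each pair hit, relative to the midpoint of the gene starts (bp, negative towards the minus-strand gene), as the share of hits (%) in 100 bp bins for 6 ZFPs with both replicates together. CTCF, in black, peaks in the bins next to the midpoint, whereas the curves of the other 5 ZFPs are broad and lower there.

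Some bidirectional promoters were hit by many ZFPs. Peaks of 5 or more ZFPs were found at 196 pairs (22.1%), against 5.76% of one-directional promoters and 7.61% of promoters of all classes. Peaks of 10 or more ZFPs were found at 22 pairs (2.48%), against 0.68% of one-directional promoters and 0.889% of all. The highest number for a pair was 12, and no pair reached 15 ZFPs, which 4 one-directional promoters and 0.0465% of all promoters did. All ZFPs were called against mock IP controls of the same kind, so these counts are not independent of each other. The count of 22 fell to 5 at a stricter peak threshold (-log10 q of at least 3) and to 0 when a hit had to be in both replicates. Without the 6 ZFPs for which the study lists no Cut&Run target genes it was also 5.

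MMS19-UBTD1, whose sequence of 129 bp between the starts is printed above, had peaks of 12 ZFPs and in both replicates of 7, the most lists of any pair with 19. MMS19 acts in the cytosolic assembly of iron-sulfur proteins. The fold there was 9.63 and 7.96 in the replicates of G2E3, 8.89 and 7.16 in ZNF22, 5.92 and 7.18 in APEX2, 6.75 and 7.51 in GIN1, 5.54 and 7.23 in CTCF, 8.07 and 4.14 in CPSF4 and 6.54 and 4.18 in PHF7. In CISD1, SNRPC, TEX13A, ZMAT3 and ZNF593 it was listed in 1 replicate only, at 4.40 to 7.92. No ZFP was set apart from the others at this pair, as the folds of different ZFPs overlap.

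VPS35-ORC6 joins a core subunit of the retromer, which sorts endosomal cargo, to a subunit of the origin recognition complex of DNA replication. It had peaks of 11 ZFPs, in both replicates of 7 and in 18 lists. ZNF22 had a fold of 14.4 in replicate 1, the highest at this pair, and 6.06 in replicate 2. APEX2 had 9.01 and 8.57, CTCF 7.93 and 7.70, CISD1 8.88 and 5.54, ZMAT3 9.06 and 5.74, G2E3 4.98 and 5.42 and TEX13A 5.26 and 4.66. APEX2 and CTCF were the ZFPs whose replicates were closest to each other among the higher folds.

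TMED1-C19orf38, with TMED1 a p24 family protein of transport between the endoplasmic reticulum and the Golgi, had peaks of 12 ZFPs in 17 lists. Its folds were 5.56 and 9.83 in APEX2, 8.82 and 6.23 in CISD1, 7.56 and 8.25 in CTCF, 7.17 and 5.59 in PHF7 and 8.44 and 5.61 in ZNF22. MZT1-BORA pairs a component of gamma-tubulin complexes with an activator of the mitotic kinases Aurora A and PLK1, and had peaks of 12 ZFPs in 16 lists, in both replicates of 4. The highest fold there, 9.40, was in ZC3H3 replicate 1.

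The other recurrent pairs had starts far apart as well as close together. HCFC1-TMEM187 (936 bp between starts), NEMP1-NAB2 (980 bp), APBA3-MRPL54 (990 bp) and TBC1D10B-MYL11 (440 bp) had peaks of 11, 9, 11 and 11 ZFPs. HCFC1 is the host cell factor that links transcription factors to chromatin modifiers, NAB2 a corepressor of EGR proteins and MRPL54 a mitochondrial ribosomal protein. The middle of APBA3-MRPL54 was not GC-rich, at 35.2%, unlike the other 9 of these 10 pairs at 57.2 to 75.3%. WDR27-C6orf120 and a readthrough gene with the same partner count as 2 of the 10 but share nearly the same DNA, and had peaks of 11 ZFPs.

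**Figure D5:**
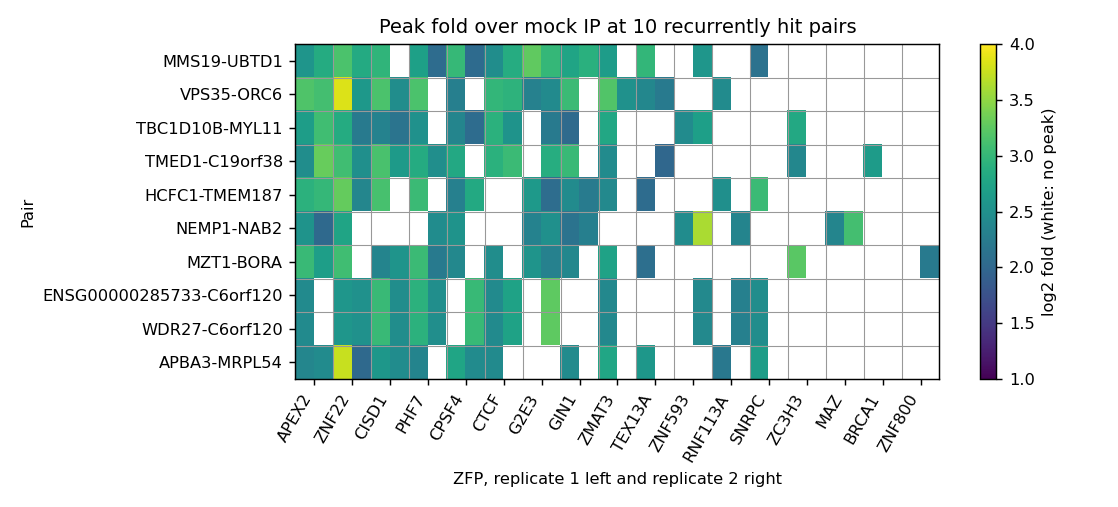
Authors' fold over the mock IP (log2, colour scale from 1 to 4) of the strongest peak at the 10 pairs hit in both replicates of the most ZFPs, in rows, for every ZFP with a peak at any of them, in columns with replicate 1 left and replicate 2 right, white where no peak was listed. The brightest cell is ZNF22 replicate 1 at VPS35-ORC6 (fold 14.4), and replicate 2 is white more often than replicate 1 in ZFPs with a short second list.

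Textbook bidirectional promoters gave a mixed picture. Of 15 pairs listed by name, 7 met the rule. SARS2-MRPS12, a mitochondrial seryl-tRNA synthetase and a mitochondrial ribosomal protein, had peaks of 10 ZFPs in 13 lists, with both replicates in CTCF (7.76 and 6.08), PHF7 (5.58 and 6.06) and ZNF22 (3.96 and 4.04). PPAT-PAICS, which encodes enzymes of de novo purine synthesis, had peaks of 7 ZFPs, with both replicates in APEX2 (6.96 and 7.91) and ZNF22 (4.53 and 5.23). NPAT-ATM, an activator of histone genes and the kinase that signals DNA double-strand breaks, had peaks of 7 ZFPs, with both replicates in ZNF22 (8.44 and 7.99) and APEX2 (5.44 and 7.01).

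PDCD10-SERPINI1 had peaks of 5 ZFPs, with both replicates in G2E3 (5.81 and 6.25). No list had a peak at COL4A4-COL4A3, COL4A6-COL4A5 or PRKDC-MCM4. The collagen pairs encode type IV collagen chains of basement membranes, and PRKDC-MCM4 joins the catalytic subunit of DNA-dependent protein kinase to a subunit of the replicative helicase. COL4A6-COL4A5 has a GC content of 46.0% and is not CpG-rich, whereas PRKDC-MCM4, with its starts 7 bp apart, has 65.3% and a CpG ratio of 0.906.

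CTCF's strongest bidirectional promoters had folds that replicated. At TPR-ODR4, with TPR a protein of the nuclear pore basket, the CTCF fold was 10.3 and 11.1, against 3.88 to 7.92 in the 8 other lists with a peak. At RRP9-PARP3, a U3 small nucleolar ribonucleoprotein subunit and a poly(ADP-ribose) polymerase, it was 10.1 and 9.15, against 4.50 to 6.41 in the 6 other lists. CTCF was thus the highest in both replicates at both pairs, which had been picked for their CTCF folds. G2E3 had 9.13 and 10.4 at IDI1-WDR37, whose IDI1 encodes an isomerase of isoprenoid and cholesterol synthesis, where APEX2 had 8.08 and 9.06. CISD1 and ZNF22 shared FAM227A-CBY1, at 6.91 and 6.23 and at 7.28 and 7.26, with starts 7 bp apart.

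A peak of 1 ZFP alone was found at 179 of the 650 pairs hit (27.5%), against 37.3% of the one-directional promoters hit and 34.9% of the promoters of all classes hit. Of the 204 pairs hit in both replicates of some ZFP, 5 had no peak of any other ZFP (2.45%, against 5.67% of one-directional promoters and 4.85% of all), 3 of them in APEX2 (LRRC41-UQCRH and the overlapping windows of C11orf98-CSKMT and a further gene with CSKMT), LSM5-AVL9 in CISD1 and RNF113A-NDUFA1 in RNF113A. These pairs were named after their values were seen.

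Pairs that hold the gene of a profiled ZFP were a case of their own. RNF113A-NDUFA1, a spliceosomal ubiquitin ligase and a subunit of respiratory complex I, had a peak in the lists of RNF113A alone, with folds of 4056 and 4035. These were also the highest folds on an exon of RNF113A, which the plasmid carries. At C1orf232-ZNF593 the fold was 2318 and 2450 in ZNF593 and 3.95 to 14.7 in the 4 other lists with a peak, and these too were the highest folds on exons of the ZFP's own gene. At the pairs of 6 other ZFP genes (BAP1-PHF7, GIN1-PPIP5K2, ELF1-WBP4, BRCA1-NBR1, ZMAT5-UQCR10 and ZNF2 with its partner) no list of that ZFP had a peak. ELF1-WBP4 had peaks of 7 other ZFPs and BAP1-PHF7 of 5. Leaving out own genes and the gene of the plasmid's promoter, EEF1A1, gave a mean log2 ratio of pairs over one-directional promoters of 1.29.

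By the role of their genes, bidirectional promoters were hit at shares around that of all pairs, 73.3%. RNA polymerase and general transcription factor genes had peaks at 20 of 25 pairs. Aminoacyl-tRNA synthetase genes had peaks at 3 of 3, histone genes at 11 of 15, cytosolic ribosomal protein genes at 8 of 11 and proteasome genes at 5 of 7. Mitochondrial ribosomal protein genes had peaks at 11 of 18, respiratory chain genes at 17 of 27, DNA repair and replication genes at 17 of 27 and zinc finger genes at 20 of 32. Peaks in both replicates of a ZFP were found at 23% of all pairs, at 2 of the 3 synthetase pairs and 32% of the RNA polymerase pairs, and at lower shares in the other 7 roles, from 9.09% (cytosolic ribosomal proteins) to 18.5% (respiratory chain). These counts are descriptions of small lists and were not tested.

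Several sequence cores, searched on both strands in a 600 bp window, were more frequent in bidirectional than in one-directional promoters. The ETS core CCGGAAG was present in 33.6% of pairs and 12.4% of one-directional promoters, the NRF1 core GCATGCGC in 10.4% and 3.68%, the YY1 core AAGATGGC in 9.58% and 4.39%, the CREB core TGACGTCA in 5.07% and 2.26% and the ZNF143 core ACTACAA in 9.58% and 5.24%. The NF-Y core CCAAT was close in both over all promoters, at 53.6% and 51.4%, with 53.1% and 45.6% among CpG-rich promoters. The TATA box TATAAA was less frequent in pairs, at 9.36% and 20.3%, with 7.76% and 9.06% among CpG-rich promoters. The SP core GGGCGG was in 84.9% of pairs and 57.8% of one-directional promoters, though in 89.0% and 89.6% among those that were CpG-rich. Among CpG-rich promoters the ETS core was in 35.2% of pairs and 20.1% of one-directional promoters, and the NRF1 core in 11.5% and 6.11%. The shares there were 10.4% and 5.98% for YY1, 5.51% and 3.64% for CREB and 9.89% and 4.99% for ZNF143.

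Among the pairs themselves, 77.4% of the 753 with an SP core were hit by at least 1 ZFP and 50% of the 134 without, while 54.2% of the 83 with a TATA box were hit and 75.2% of those without. With and without an ETS core the shares were 73.8% and 73.0%, and with and without an NF-Y core 73.5% and 73.1%. Base composition, which moves with these cores, was not separated from them.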

How the data were processed

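Peaks of 72 Cut&Run libraries were analysed. Per the labels and the study's methods, the authors trimmed reads (Trimmomatic 0.36), aligned them to hg38 (Bowtie2 2.3.5.1), removed duplicates (Picard 0.1.8) and called narrow peaks per replicate against the same-batch V5 mock IP (MACS2 2.2.7.1). The deposited lists give for each peak a score, a fold over the control (a ratio) and −log10 p- and q-values, with no read totals. The mock IP libraries were not analysed here as lists of their own.

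Gene starts came from GENCODE 44. A promoter was hit when at least 1 bp of a peak overlapped its window. Replicates were joined per ZFP, as the authors did. Each log2 ratio used a prior count of 0.5 and ZFPs with at least 20 promoters hit, or at least 10 in both classes for folds. ZFPs were tested by a two-sided sign-flip permutation test (100000 resamples, smallest p 1e-05) with Benjamini-Hochberg adjustment over 5 tests, in Python 3.11.15 with numpy 2.4.6, pandas 2.3.3 and pysam 0.24.0. Overlaps, pair finding and the test were tested on simulated data. Shares have exact binomial 95% intervals, and a count of 0 allows 3 counts. Sequences were read from hg38.

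Pairs named were the 10 hit in both replicates of the most ZFPs, 15 textbook pairs, pairs with a profiled ZFP's gene, and, for the 5 ZFPs with most pairs hit in both replicates and CTCF, the 2 with the highest lower replicate fold. The members and lists were chosen with earlier results of these data known. Alternatives covered windows, pair distance, orientation, annotation, peak threshold, replicates, ZFP sets and CpG and hit minimums.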

Additional observations from a re-analysis of the deposited data

How the results depend on the processing

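Values are mean log2 ratios over ZFPs unless said otherwise. The excess over one-directional promoters kept its direction in 22 of 22 alternatives (0.98 to 1.92) and its call in 21, the exception being a prior count in proportion to class size (0.98, adjusted p = 0.0502, permutation test). Leaving out a replicate gave 1.41 and 1.75. The comparison with coding-noncoding promoters turned to above 0 in 10 of 20: 0.18 with no extension, 0.028 with 600 bp windows, 0.38 and 0.33 at −log10 q of at least 3 and 5, 0.63 in both replicates, 0.037 and 0.37 without replicate 1 and 2, 0.33 and 0.39 with at least 50 and 100 promoters hit and 0.20 with RefSeq starts. It gained a call at both −log10 q thresholds, without replicate 2 and at both minimums. Among CpG-rich promoters the excess lost its call without replicate 1 (0.52; 0.86 without replicate 2), without the 6 ZFPs with no listed target genes (0.48), at the stricter CpG threshold (0.38) and with the prior in proportion (0.23). The fold difference turned to below 0 at −log10 q of at least 3 and 5 (-0.0062 and -0.0095), in both replicates (-0.014) and without replicate 1 (-0.012; 0.019 without replicate 2). Close against wider pairs lost its call in both replicates (-0.80), without replicate 1 (-0.43; -0.58 without replicate 2), without the libraries labelled U2AF1 (-0.40), with at least 50 promoters hit (-0.21) and at 200 bp (-0.086), and turned with the prior in proportion (0.0022). The 22 pairs hit by 10 or more ZFPs became 8 with no extension, 5 and 1 at −log10 q of at least 3 and 5, 13 by summit, 0 in both replicates, 0 and 9 without replicate 1 and 2 and 5 without 6 ZFPs. With 5 or more ZFPs they were 196 and with 15 or more 0. Why these values moved was not tested, except that stricter settings leave fewer peaks and ZFPs. Alternatives chosen after the data were seen were the minimum of 100, the prior in proportion and leaving out U2AF1, TRIM55 and ZMAT5, where the excess was 1.35 (adjusted p = 0.0003, permutation test).

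With the replicate block (mean of a ZFP's 2 lists in place of joined lists), the excess over one-directional promoters was 1.56 and close against wider pairs -0.79, and no call changed. These means include lists with no hit in either class, 3 of them from tested ZFPs in the first, whose value of 4.05 comes from the prior count alone, so they bear little on stability. Nothing in the labels ties same-numbered replicates of different ZFPs to each other, and the batches are unknown. Over 15 ZFPs the differences between replicates 1 and 2 correlated between ZFPs at -0.12 to 0.25 (median 0.047), above 0.1 in 23 of 105 pairs of ZFPs.

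List length limits the rest: with 28 of 72 lists holding no pair and the number of reads unknown, shares from few hits are bounds rather than measurements, and p-values cover the spread between ZFPs, not between cultures.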

Other observations

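In 17 ZFPs both replicate lists hit at least 20 promoters, and in 15 of these both lists had a larger share of pairs hit than of one-directional promoters. The exceptions were replicate 2 of SNRPC, at 0.113% of pairs and 0.19% of one-directional promoters, and replicate 2 of BRCA1, at 0.113% and 0.163%.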
